A study of Mus musculus with 6 samples.

Results

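The genes of glucose breakdown and of creatine kinase were taken as a module of 42 mouse genes: glucose transporters, the enzymes of glycolysis, lactate and pyruvate handling, the tricarboxylic acid (TCA) cycle, the pentose phosphate pathway and the creatine kinases. Members were listed by gene name; the selection rule used no measured value, though earlier results of these data were known when the list was made. A gene was measured where the platform annotation gave a probe set to that gene alone, and where several qualified, the brightest on average across the 6 arrays stood for the gene. Of the 42 genes, 38 were measured this way, among 19938 genes in all. Gpi1, Eno1 and G6pdx had no such probe set, and Gapdh was named only by probe sets that list several genes.

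Satellite cells, the stem cells that rebuild injured skeletal muscle, came here from the hind-limb, abdominal and triceps muscles of C57BL/6J mice aged 2 months, and no genetic change or drug is named for either group. Cells were sorted from resting muscle as positive for beta-1 integrin and CXCR4 and negative for CD45, CD31, CD11b, Ter119 and Sca1, and RNA was taken either from fresh cells (3 arrays) or after 5 days in culture (3 arrays). The culture wells were coated with collagen and laminin, and the medium held 20% horse serum with 5 ng/ml of basic fibroblast growth factor added each day. The labels speak of 3 mice but do not tie arrays to mice, so p-values reflect only how far these samples vary, which may be technical variation. In such bulk samples, fewer cells of a type and less RNA per cell cannot be told apart.

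Glycolysis splits glucose into pyruvate, which is reduced to lactate or enters the mitochondrion, where pyruvate dehydrogenase feeds the TCA cycle. Many steps are run by alternative enzymes made from separate genes, the isoforms, whose balance differs between proliferating cells and mature muscle. The pentose phosphate pathway branches off to make NADPH and ribose for growth, and creatine kinases buffer ATP, with a muscle form (Ckm) and a brain-type form (Ckb). Quiescent satellite cells are known to take up glucose sparingly and to raise glycolysis when they enter the cell cycle.

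The sequences upstream of 5 of these genes are shown because the genes differ in the arrays: Eno3, which rose in culture, Pgk1 and Pgam1, whose values were higher on every cultured array, and Pfkp and Ckm, which fell. Pgk1 and Pgam1 did not pass the test described below, while Pgd and Pdk4, which passed it, are not shown. Each runs 5′ to 3′ on the gene's strand over the 250 bases before the RefSeq start in GRCm38.p6. Capitals mark ACGTG on either strand. It is a form of the core, ACGTG or GCGTG, of the element that hypoxia-inducible factors bind. The windows are chr11:70656926-70657175 (plus strand) for Eno3, chrX:106186850-106187099 (plus) for Pgk1, chr19:41911621-41911870 (plus) for Pgam1, chr13:6648772-6649021 (minus) for Pfkp and chr7:19410844-19411093 (plus) for Ckm.
Eno3: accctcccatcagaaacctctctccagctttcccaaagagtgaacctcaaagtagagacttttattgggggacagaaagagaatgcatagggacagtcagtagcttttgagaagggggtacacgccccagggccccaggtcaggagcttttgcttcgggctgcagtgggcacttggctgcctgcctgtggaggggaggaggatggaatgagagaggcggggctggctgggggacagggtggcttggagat
Pgk1: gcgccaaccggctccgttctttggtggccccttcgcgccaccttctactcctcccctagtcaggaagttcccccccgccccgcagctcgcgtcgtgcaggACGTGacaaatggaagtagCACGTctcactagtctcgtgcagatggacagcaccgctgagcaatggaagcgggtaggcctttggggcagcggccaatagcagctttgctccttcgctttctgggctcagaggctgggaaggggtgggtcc
Pgam1: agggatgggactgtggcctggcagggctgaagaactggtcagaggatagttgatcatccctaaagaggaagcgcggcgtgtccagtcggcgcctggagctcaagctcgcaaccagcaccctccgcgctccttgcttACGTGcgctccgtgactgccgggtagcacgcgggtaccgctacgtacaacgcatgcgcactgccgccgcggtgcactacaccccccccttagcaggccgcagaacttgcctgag
Pfkp: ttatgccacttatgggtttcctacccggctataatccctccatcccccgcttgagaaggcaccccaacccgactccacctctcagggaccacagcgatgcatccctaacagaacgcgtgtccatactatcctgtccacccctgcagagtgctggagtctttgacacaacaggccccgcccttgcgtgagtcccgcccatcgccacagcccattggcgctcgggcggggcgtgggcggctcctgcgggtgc
Ckm: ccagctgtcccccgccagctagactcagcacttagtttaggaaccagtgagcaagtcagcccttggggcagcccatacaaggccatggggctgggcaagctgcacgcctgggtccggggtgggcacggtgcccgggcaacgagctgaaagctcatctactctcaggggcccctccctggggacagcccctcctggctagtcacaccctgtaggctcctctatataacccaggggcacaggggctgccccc

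Pgk1 held 2 matches, with first bases 150 and 131 bases before the start, and Pgam1 held 1, at 114 bases. The windows of Eno3, Pfkp and Ckm held no ACGTG on either strand. GCGTG, the other form of the core, was neither marked nor counted. Of the 35 measured members with a RefSeq promoter, 13 had ACGTG in at least 1 promoter, or 37.1%, against 18.5% of 27025 genes. The 27025 are all genes with a RefSeq promoter, measured or not, and a gene with more promoters has more chances of a match. Counted by promoter, 21 of 52 member promoters had it, 6 of them of Ogdh, against 16.6% of 32851 promoters. Those 13 were Aldoa, Hk2, Ldha, Mdh1, Ogdh, Pfkfb3, Pfkm, Pgam1, Pgk1, Pkm, Slc16a1, Slc16a3 and Slc2a1. Among them Hk2 was lower on every cultured array, and Pgd and Pdk4, which passed the test described below, had no match. The windows shown above are therefore no guide to how members with ACGTG changed in culture. TGANTCA, the site bound by Fos and Jun dimers, was in the promoter of 1 member, Aldoa (2.86% of members against 7.82% of genes). A match describes the letters only.

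Across the module, 5 of the 38 genes passed limma's test at a Benjamini-Hochberg adjusted p under 0.05 over all genes, which is 13.2% of members beside 4.32% of all genes. Pfkp, Pdk4 and Ckm fell in culture (3.37% of all genes fell), and Eno3 and Pgd rose (0.953% of all genes rose). The other 33 did not pass. The median log2 fold change, always given as cultured minus fresh, was 0.28 over the members and 0.04 over all genes, and 8 members differed by at least 1 on that scale. In 17 members the 3 cultured values did not overlap the 3 fresh values, 5 lying below and 12 above, while 23.2% of all genes did not overlap (10.3% below and 12.9% above).

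**Figure D1:**
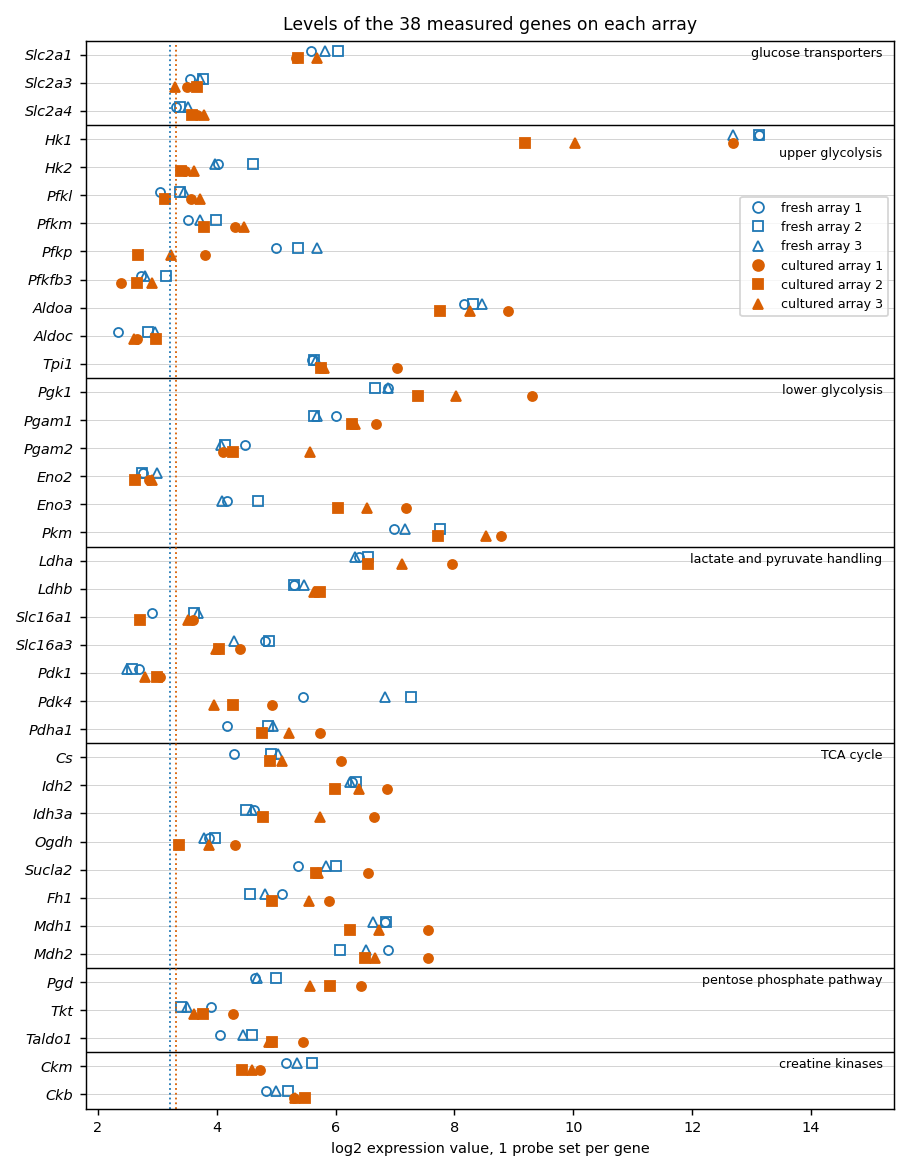
Log2 expression value (x axis) of each of the 38 measured genes (rows, by role) on the 3 fresh arrays (open blue symbols) and the 3 cultured arrays (filled orange symbols). Dotted lines mark the background level of 3.21 in fresh (blue) and 3.32 in cultured arrays (orange), and the Pfkp, Pdk4 and Ckm points shift left in culture while those of Eno3 and Pgd shift right.

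The values are log2 intensities summarised per probe set. Array medians ran from 3.10 to 3.15. Background was set from 1194 odorant and pheromone receptor genes, at their 95th percentile, and 32 members lay above it in both groups while 4 (Pfkfb3, Aldoc, Eno2 and Pdk1) lay within it in both. Genes with a mean level over 10 had a median change of -0.10 on cultured array 1, -3.24 on array 2 and -2.49 on array 3, so the cultured arrays differed from each other at the bright end. Satellite cell markers were well above background in fresh arrays, with Pax7 at 6.47, Myf5 at 7.04 and Cxcr4 at 7.52. Markers of the gated-out cells, Ptprc (CD45), Pecam1 (CD31) and Itgam (CD11b), lay within background in both groups, but 3 of 9 endothelial markers (Tie1, Tek and Cldn5) and 3 of 9 myeloid and lymphoid markers (Cd68, Cd3e and S100a9) were above it in fresh arrays, at 3.30 to 3.74, and Tek fell (-0.76, limma adjusted p = 0.0413). In culture 10 of 15 satellite markers fell and 6 of 10 markers of differentiating myocytes rose. Of 9 fibro-adipogenic markers 7 were above background in fresh arrays and 4 fell. The 9 had a summed level of 45.0 to 48.1 in fresh and 31.2 to 32.2 in cultured arrays. The 4 that fell averaged 7.39 (Dcn), 7.44 (Dpt), 7.49 (Apod) and 6.04 (Col3a1) in fresh arrays. Their log2 fold changes were -4.52, -5.02, -3.29 and -1.08. The tendon markers summed to 29.2 on fresh array 1 against 22.0 and 19.9 on the other fresh arrays. The part of these cell types in the changes below was not tested unless a value is given.

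None of the 3 glucose transporters passed the test. Slc2a1 (GLUT1, the basal transporter) averaged 5.81 ± 0.23 in fresh and 5.46 ± 0.20 in cultured cells (SD, n = 3 each), and Slc2a3 (GLUT3) 3.68 ± 0.11 and 3.49 ± 0.18. The groups overlapped for both. Slc2a4 (GLUT4, the insulin-responsive transporter of muscle and fat) was low, at 3.41 ± 0.10 and 3.68 ± 0.11, with every cultured array above every fresh one (limma adjusted p = 0.353).

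In upper glycolysis 1 of 9 genes fell, with the smallest adjusted p of the module's 3 decreases. Pfkp, the platelet-type phosphofructokinase subunit, read 5.00, 5.37 and 5.68 in the fresh samples against 3.80, 2.68 and 3.23 in the cultured samples. All 3 cultured values lay below the fresh ones, and only 1 of 3 exceeded background. Pfkp fell by 2.11 ± 0.30 (SE) on the log2 scale, 4.33-fold (95% interval -2.80 to -1.42, limma adjusted p = 0.00703). With cultured values under background set to it, the decrease was 3.65-fold. The other phosphofructokinase subunits did not pass. Pfkl, the liver type, read 3.05, 3.38 and 3.45 in fresh and 3.56, 3.12 and 3.72 in cultured arrays, and Pfkm, the muscle type, read 3.52, 3.99 and 3.72 against 4.32, 3.78 and 4.46. Both pairs of groups overlapped.

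The hexokinases, which phosphorylate glucose on entry, did not pass the test. Hk2, the inducible form of muscle, read 4.02, 4.62 and 3.97 in fresh and 3.47, 3.39 and 3.62 in cultured arrays, all cultured values below all fresh ones (-0.71 ± 0.20, limma adjusted p = 0.10). Hk1 had probe sets that disagreed, and whether the kept one, tied to 1 accession, measures Hk1 was not tested. It read 13.13, 13.13 and 12.69 in fresh arrays and 12.69, 9.18 and 10.02 in cultured arrays. Cultured array 1 thus sat at the lowest fresh value and the other cultured arrays far below, for a log2 fold change of -2.35 ± 0.78 (adjusted p = 0.163). The size depended on the arrays and the scaling. After quantile normalization and cyclic loess the same probe set gave -0.66 and -0.54 (limma adjusted p = 0.205 and 0.187). It passed without cultured array 1 (-3.38, limma adjusted p = 9.43e-05), with array weights (-2.61, 0.0327) and with centring on the brightest genes (-1.87, 5.19e-08). In the centred fit the adjusted p followed only the size of the change. That p-value does not measure the spread of the cultured values above (SD 1.83). The other Hk1 probe set, tied to 8 accessions, read 5.04, 5.06 and 4.95 against 4.92, 4.49 and 4.74, a difference of -0.30 ± 0.15. The kept probe set lies among the genes brighter than 10, whose median also dropped on cultured arrays 2 and 3.

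The remaining upper glycolysis genes did not pass. Aldoa, the aldolase of muscle, averaged 8.31 ± 0.15 and 8.31 ± 0.57, and its difference of -0.01 had a 95% interval of -0.64 to 0.62. That direction depended on scaling: Aldoa was 0.66 higher after quantile normalization and 0.75 higher after cyclic loess, past the test in both. Tpi1, triosephosphate isomerase, read 5.61, 5.64 and 5.66 in fresh arrays and 7.03, 5.75 and 5.81 in culture, so that 1 array made most of its difference of 0.56. Pfkfb3, which makes the allosteric activator of phosphofructokinase, and Aldoc stayed within background in both groups.

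Lower glycolysis had the highest group median of the module, 0.85 over 6 genes. Eno3, the muscle form of enolase, read 4.17, 4.69 and 4.09 in fresh arrays and 7.18, 6.04 and 6.52 in cultured arrays. The groups were separated by more than 1 log2 unit. Eno3 rose by 2.27 ± 0.30 on the log2 scale, or 4.82-fold (95% interval 1.58 to 2.96, limma adjusted p = 0.0051), the change ranked 18 among all increases by size. Eno2, the neuronal form, lay within background in both groups. Eno3 is also a gene of muscle differentiation. The differentiating myocyte markers summed to 39.7 to 41.0 in fresh arrays and to 56.1, 55.6 and 69.4 on cultured arrays 1 to 3, with 8 of 10 above background in fresh cells. The mature fibre markers summed to 86.7 to 89.7 in fresh arrays and to 87.3, 87.7 and 105.6 in culture, with 1 of 20 past the test. Eno3 was highest on cultured array 1 and both sums on cultured array 3. What part the cells with these markers had in the Eno3 change was not tested.

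Pgk1, phosphoglycerate kinase and an ATP-making step, read 6.88, 6.66 and 6.88 in fresh arrays and 9.30, 7.38 and 8.02 in cultured arrays. Every cultured array was above every fresh one, but they ranged over almost 2 log2 units, and the difference of 1.43 ± 0.43 did not pass (95% interval 0.44 to 2.42, limma adjusted p = 0.125). It passed without cultured array 1 (0.89, adjusted p = 0.0421) and without cultured array 2 (1.85, adjusted p = 0.0347). Another Pgk1 probe set had values identical to the kept one, and the remaining one gave 1.44. Pkm, pyruvate kinase of muscle and proliferating cells, read 6.97, 7.75 and 7.16 against 8.78, 7.72 and 8.53. On this kept probe set cultured array 2 fell among the fresh values, and the difference of 1.05 ± 0.31 did not pass (limma adjusted p = 0.118). It did pass without that array (1.36, adjusted p = 0.0317). The probe sets disagreed on the overlap. The other Pkm probe set read 6.81, 7.57 and 6.65 against 8.62, 7.67 and 8.14, every cultured value above every fresh one. Its difference of 1.14 did not pass either (limma adjusted p = 0.105 over all probe sets). Pgam1, the widely expressed phosphoglycerate mutase, was higher on every cultured array (5.78 ± 0.20 and 6.43 ± 0.22, adjusted p = 0.0897), and 2 further Pgam1 probe sets of identical values gave 0.92. Pgam2, the muscle form, stood out on cultured array 3 alone, at 5.56 beside 4.11 and 4.27 on the other cultured arrays. Without that array its difference of 0.42 became -0.04.

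**Figure D2:**
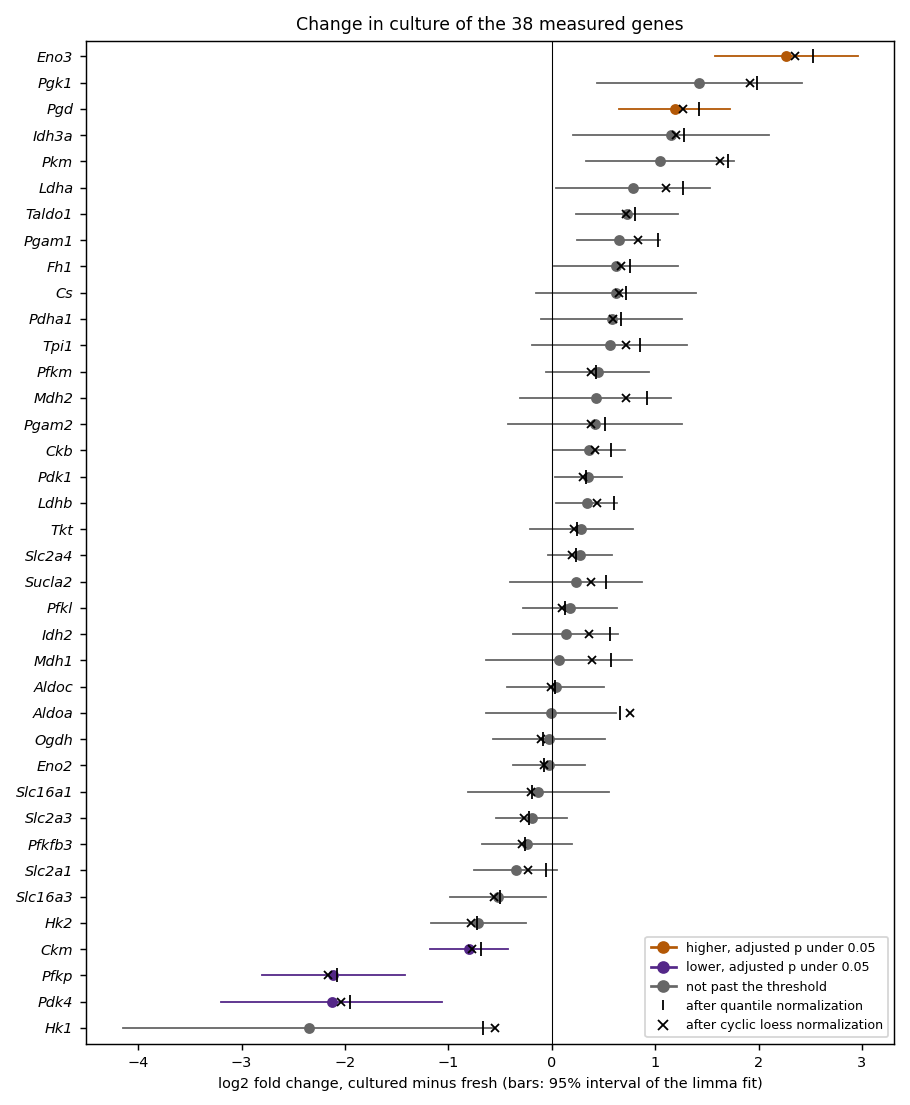
Log2 fold change, cultured minus fresh (x axis), of the 38 genes (rows, sorted), with the 95% interval of the limma fit as bars. Orange marks Eno3 and Pgd, which rose, purple marks Pfkp, Pdk4 and Ckm, which fell, grey marks the 33 others, and the ticks and crosses give the value after quantile and cyclic loess normalization, which lie to the right of the point for Pgk1, Pkm and Aldoa.

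Scaling changed how many members passed and in which direction. After quantile normalization of the deposited values 4 members were lower and 12 higher, 42.1% of members beside 7.58% of all genes. The 12 were Aldoa, Tpi1, Pgk1, Pgam1, Eno3, Pkm, Ldha, Idh2, Idh3a, Mdh2, Pgd and Taldo1, and Hk2 joined the 3 lower genes. Cyclic loess gave 4 lower and 9 higher (34.2% of members, 7.48% of genes). Centring each array on its brightest genes (the 10% with the highest means) gave 3 lower and 18 higher (55.3% of members, 18.5% of genes), but it also moved the median of all genes to 0.52. The limma adjusted p then followed the size of the change alone: 0.0378 for Ckb (0.84) and 0.0263 for Pgam2 (0.92). Their cultured SDs on the deposited scale were 0.10 and 0.80. Calls after centring are thus a cut-off on fold change and do not weigh a gene's spread between arrays. As a share of the genes that passed, higher calls went from 40% of members on the deposited scale to 75%, 69.2% and 85.7%. Over all genes that share went from 22.1% to 38.8%, 30.6% and 83.4%. Eno3, Pgd, Pfkp and Pdk4 passed in the same direction on all 4 scales.

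Lactate and pyruvate handling showed 1 decrease. Pdk4, a kinase that inactivates pyruvate dehydrogenase and is known for induction by fasting, read 5.44, 7.26 and 6.83 in fresh arrays and 4.93, 4.28 and 3.95 in cultured arrays. The groups did not overlap, although fresh array 1 was well below the other fresh arrays. Pdk4 fell by 2.13 ± 0.46 on the log2 scale, 4.37-fold (95% interval -3.20 to -1.06, limma adjusted p = 0.0457). It was lower under every alternative tried, but the call was lost without fresh array 2 (-1.75, adjusted p = 0.146), fresh array 3 (-1.97, 0.172), cultured array 2 (-2.08, 0.0965) or cultured array 3 (-1.91, 0.183). Pdk1, another kinase of this family, read 2.70, 2.58 and 2.49 against 3.05, 2.99 and 2.79, within background throughout. Pdha1, the catalytic subunit these kinases act on, averaged 4.66 ± 0.42 and 5.24 ± 0.49, with overlap.

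Ldha, the lactate dehydrogenase subunit of muscle, averaged 6.42 ± 0.11 in fresh and 7.21 ± 0.71 in cultured cells, and Ldhb, that of heart, 5.35 ± 0.09 and 5.69 ± 0.05. Every cultured value of both was above every fresh value, yet neither passed (limma adjusted p = 0.254 and 0.217). The other Ldhb probe set gave 0.43 but did not separate the groups. It read 3.88, 3.71 and 3.84 in fresh arrays and 4.79, 3.69 and 4.23 in cultured arrays, with cultured array 2 below every fresh value. Of the monocarboxylate carriers, Slc16a3 (MCT4, the lactate exporter of glycolytic muscle) averaged 4.66 ± 0.32 and 4.14 ± 0.21 and Slc16a1 (MCT1) 3.40 ± 0.43 and 3.27 ± 0.49. Both overlapped between groups.

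None of the 8 TCA cycle genes passed. Idh3a, the catalytic subunit of NAD-dependent isocitrate dehydrogenase, read 4.63, 4.50 and 4.59 in fresh arrays and 6.65, 4.77 and 5.74 in cultured arrays. The fresh values were close together and all cultured values above them, but the cultured values spread over nearly 2 log2 units (1.15 ± 0.41, limma adjusted p = 0.191). Idh3a passed without cultured array 2 (1.63, adjusted p = 0.0196). The other 7 overlapped between groups, with log2 fold changes from -0.03 for Ogdh, of the 2-oxoglutarate dehydrogenase complex, to 0.63 for Fh1, fumarase. Between them lay Cs, citrate synthase (0.62), Mdh2 and Mdh1, the mitochondrial and cytosolic malate dehydrogenases (0.42 and 0.07), Sucla2 (0.23) and Idh2 (0.14). The TCA median was 0.93 on cultured array 1, -0.03 on array 2 and 0.15 on array 3, so the cultured arrays did not move together.

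In the pentose phosphate pathway 1 of 3 genes rose. Pgd, 6-phosphogluconate dehydrogenase, an NADPH-making step, read 4.65, 5.00 and 4.68 in fresh arrays and 6.43, 5.91 and 5.56 in cultured arrays. All cultured values exceeded all fresh ones. Pgd rose by 1.19 ± 0.23 on the log2 scale, 2.28-fold (95% interval 0.65 to 1.72, limma adjusted p = 0.0292). The call was lost without fresh array 1 (1.13, adjusted p = 0.102), fresh array 2 (1.30, 0.0695), fresh array 3 (1.14, 0.123) or cultured array 2 (1.22, 0.0601). Taldo1, transaldolase, was higher on every cultured array (4.36 ± 0.28 and 5.09 ± 0.32, limma adjusted p = 0.115), and Tkt, transketolase, averaged 3.60 ± 0.26 and 3.89 ± 0.34 with overlap.

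**Figure D3:**
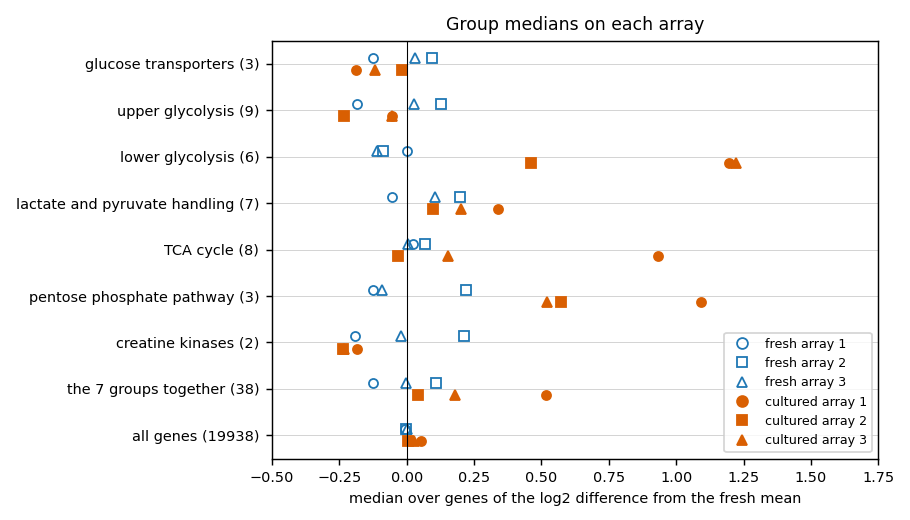
Median over the genes of each role (rows, number of genes in parentheses) of the log2 difference from the fresh mean (x axis), 1 symbol per array, with all members and all genes in the last 2 rows. The cultured medians of lower glycolysis are 1.20, 0.46 and 1.22 and those of the pentose phosphate pathway 1.09, 0.57 and 0.52, while the cultured medians of all genes stay between 0.00 and 0.05.

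More members were high on cultured array 1 than on the other cultured arrays. Of the 38 members, 25 were above every fresh array on cultured array 1, 13 on array 2 and 20 on array 3, which is 65.8%, 34.2% and 52.6% beside 36.8%, 31.0% and 33.4% of all genes. For 20 members (52.6%) the highest value of the 6 arrays was on cultured array 1, as it was for 23.2% of all genes. The median of all members was 0.52, 0.04 and 0.18 on cultured arrays 1 to 3. Members below every fresh array numbered 8, 14 and 7, or 21.1%, 36.8% and 18.4%, near the 22.8%, 30.4% and 26.4% of all genes.

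Of the creatine kinases, 1 of 2 fell in culture. Ckm, the muscle form, read 5.17, 5.60 and 5.35 in fresh arrays and 4.72, 4.42 and 4.59 in cultured arrays, and fell by 0.80 ± 0.16 on the log2 scale, 1.74-fold (95% interval -1.18 to -0.42, limma adjusted p = 0.0369). Ckb, the brain-type form, read 4.82, 5.21 and 4.99 against 5.29, 5.49 and 5.32 and did not pass (0.36 ± 0.15, limma adjusted p = 0.264). In both genes the groups did not overlap. The Ckm call was lost without fresh array 2 (adjusted p = 0.126), fresh array 3 (0.122), cultured array 2 (0.0845) or cultured array 3 (0.136), with a trended and robust prior (0.0742), and with centring on the brightest genes (-0.32, adjusted p = 0.358). Ckm fell while Eno3, the muscle form of another enzyme, rose. Of the 20 mature fibre markers none passed the test as lower, and 1 passed as higher. Their log2 fold changes ran from -0.75 for Pvalb, lower on every cultured array, to 2.27 for Mylpf, with a median of 0.08. The part of fibre RNA in the Ckm change was not tested.

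Isoform balance was compared as the difference of 2 isoforms' log2 values within each array, read only as a change between groups. Of 13 pairs, 2 involve Eno1 and had no value, and 5 of the other 11 did not overlap between groups. Among single genes 23.2% did not overlap, and no such share was computed for pairs of genes. Pfkp, Pdk4 and Ckm, which passed the test alone, are in these pairs, so the count partly repeats their calls. Each of the 5 had the smallest p that 3 against 3 arrays allow (exact two-sided permutation p = 0.10, adjusted over 11 pairs 0.22), so no pair could pass 0.05. Ckb minus Ckm was -0.35, -0.40 and -0.36 in fresh arrays and 0.57, 1.07 and 0.73 in culture, a change of 1.16 that had the tightest fresh values of the set (SD 0.03). Pfkp minus Pfkl went from 2.06 ± 0.15 to -0.23 ± 0.41, with Pfkp near background in culture. Pdk1 minus Pdk4 went from -3.92 ± 1.03 to -1.44 ± 0.39, with Pdk1 within background.

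The 2 other non-overlapping pairs changed by less. Slc2a1 minus Slc2a4 fell from 2.40 ± 0.22 to 1.78 ± 0.12, but overlapped after quantile normalization, where its change was -0.30. Pfkl minus Pfkm changed by -0.27. Among the 6 overlapping pairs, Ldha minus Ldhb changed by 0.45, Slc16a3 minus Slc16a1 by -0.39, Pgam1 minus Pgam2 by 0.23, Slc2a1 minus Slc2a3 by -0.15 and Aldoa minus Aldoc by -0.04. Aldoa minus Aldoc did not overlap after quantile normalization (change 0.63) or cyclic loess (0.76), with Aldoc within background. Hk1 minus Hk2 depended on the Hk1 probe set, at -1.64 with the kept one and 0.41, without overlap, with the other.

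**Figure D4:**
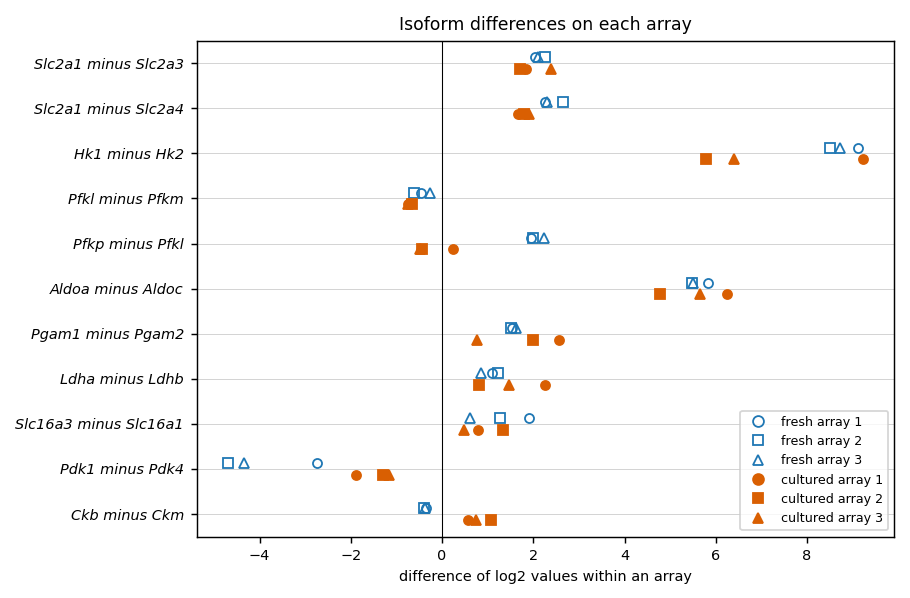
Difference of the log2 values of 2 isoforms within an array (x axis) for the 11 measured pairs (rows), 1 symbol per array. The fresh and cultured symbols separate for 5 pairs, among them Ckb minus Ckm (change 1.16), and also Pdk1 minus Pdk4 (2.48) and Pfkp minus Pfkl (-2.29), in which Pdk1, and Pfkp in culture, lay within background.

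Beyond the 42 genes, 8 lists written from textbook membership held 149 further genes of these pathways, of which 139 were measured, 11 fell (7.91%, beside 3.37% of all genes) and 5 rose (3.60%, beside 0.953%). In glucose transport and glycolysis 1 of 27 fell, the transporter Slc2a12 (-0.77, limma adjusted p = 0.0324). Its cultured values were all within background, which makes it at least 1.49-fold lower. In pyruvate and lactate handling Mpc1, a subunit of the mitochondrial pyruvate carrier, fell by 1.88 on the log2 scale (7.19 ± 0.45 to 5.30 ± 0.76, limma adjusted p = 0.0369). Me1, the cytosolic malic enzyme, another source of NADPH, rose by 1.70 (limma adjusted p = 0.0196). Its fresh level was above background on 1 of 3 arrays, and with the others set to background the increase was 1.49, or 2.82-fold. Emb passed but lay within background in both groups. None of 16 further TCA genes passed, and the most changed were Suclg1 (1.15, adjusted p = 0.0875) and Sdhd (0.98, 0.156).

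Several genes on side branches of glycolysis passed the test. Gfpt2, which commits fructose-6-phosphate to the hexosamine pathway, fell from 5.65 ± 0.39 to 3.47 ± 0.22 (-2.18, limma adjusted p = 0.00151), and Uap1, which makes the end product UDP-N-acetylglucosamine, fell by 1.44 (adjusted p = 0.00589). The cultured level of Gfpt2 was close to the background of 3.32, with cultured array 3 (3.30) below it. Ugp2, which makes UDP-glucose for glycogen, fell by 1.96 (limma adjusted p = 0.00287), the only 1 of 18 glycogen genes to pass. Pgls, the lactonase just before Pgd in the pentose phosphate pathway, rose by 0.93 (adjusted p = 0.0269). Ak1, adenylate kinase, which moves phosphate between adenine nucleotides, rose by 1.45 (limma adjusted p = 0.00766), while the other 6 genes of the creatine list did not pass.

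Of 21 regulators of glucose metabolism 3 fell and none rose. Myc, a transcription factor known to drive glycolytic genes, fell from 9.76 ± 0.09 to 5.70 ± 0.70 (-4.06, limma adjusted p = 0.000366). Txnip, an inhibitor of glucose uptake, fell from 6.83 ± 0.82 to 3.43 ± 0.10 (-3.40, adjusted p = 0.00202), and Arnt, the partner of hypoxia-inducible factors, by 1.20 (0.00285). The cultured level of Txnip lay close to the background of 3.32, which limits the size of its decrease. Among 17 hypoxia response genes outside glycolysis, P4ha1, Ndrg1 and Kdm3a fell (-2.26, -2.20 and -1.06) and Egln3 rose (1.28, limma adjusted p = 0.041). Kdm3a was within background on all cultured arrays (at least 1.62-fold lower) and Egln3 on all fresh arrays (at least 2.15-fold higher). Gfpt2, Uap1, Ak1, Ugp2, Myc, Txnip, P4ha1 and Ndrg1 passed under all 15 alternatives. Leaving out 1 array ended the call of the other genes named, except Arnt: without fresh array 3 for Slc2a12 (adjusted p = 0.113), Mpc1 (0.135), Me1 (0.0948), Pgls (0.0986), Egln3 (0.149), Emb (0.0729) and Kdm3a (0.0589), and without other arrays for each of these as well. Centring on the brightest genes ended the calls of Slc2a12 (adjusted p = 0.401), Arnt (0.0713) and Kdm3a (0.126).

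**Figure D5:**
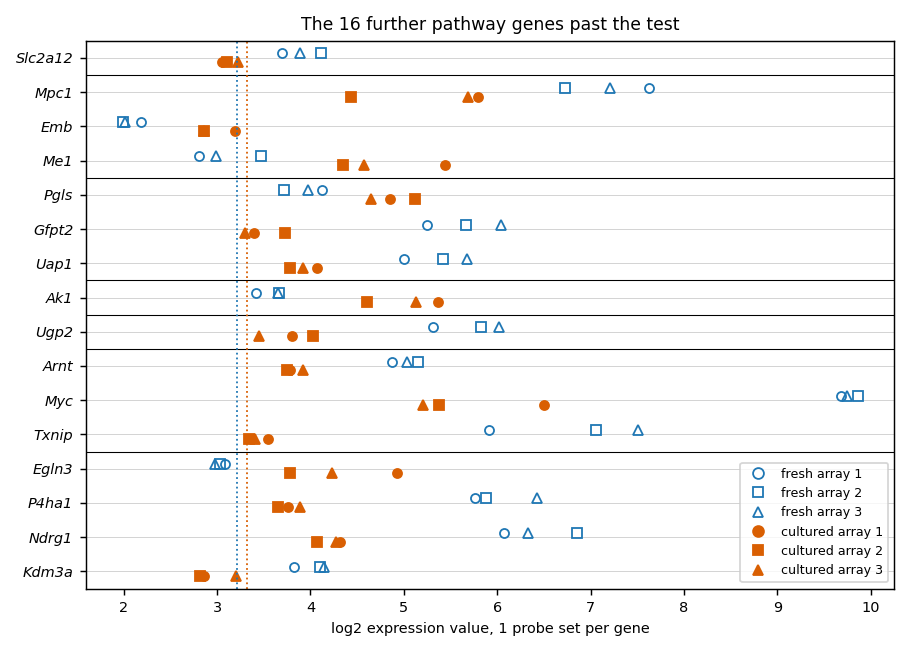
Log2 expression value (x axis) of the 16 further pathway genes that passed the test (rows, by list) on the 3 fresh arrays (open blue symbols) and 3 cultured arrays (filled orange symbols), with the background of each group as a dotted line. Fresh and cultured symbols do not overlap in any row, and Myc and Txnip show the largest decreases.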

How the data were processed

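Satellite cell RNA was labelled with biotin and hybridised to Affymetrix arrays, 3 per group. The deposited values are log2 expression values that the authors made with RMA in oligo, per the submitters' processing notes; the sources used here do not give versions or a genome build. Of 35556 probe sets, the platform annotation gave 21789 to 1 gene and 1621 to several, and 12146 were unlisted; symbols were updated with RefSeq's GRCm38.p6 names, which 91 names did not match. The fit used limma 3.58.1 in R 4.3.3 (lmFit, eBayes, group as the only term) over 19938 genes, with Benjamini-Hochberg adjustment. No gene was filtered for a low level. The number of arrays limits the precision.

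Members and lists were chosen with earlier results of these data known. Values on each array are given for members past the test, for those differing by 1 or more on the log2 scale and for their isoform partners; of each further list, up to 4 genes past the test are named. Alternatives were the replicate block, another variance prior, array weights, 3 other scalings, a level filter, 2 other probe set rules, leaving out each array, and, added after seeing the data, other Hk1 and Pgam1 probe sets. When the cultured against fresh fit was tested on simulated data of 19938 genes, it recovered 28, 43, 47 and 50 of 50 genes changed by 1, 2, 3 and 4 on the log2 scale, with 9 false calls. The simulated noise was independent between genes, without a shared shift of bright genes on an array and without a background floor. These counts therefore do not cover such features of the real arrays. Promoters came from a RefSeq table and isoform pairs were tested by exact permutation.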

Additional observations from a re-analysis of the deposited data

How the results depend on the processing

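Pfkp and Eno3 passed in the same direction under all 15 alternatives (log2 fold changes -2.40 to -1.63 and 1.97 to 2.75). Leaving out each array in turn gave 1 to 4 members lower and 1 to 4 higher, 380 to 1278 of all genes lower and 51 to 279 higher, and 8 to 17 further pathway genes lower and 1 to 7 higher. Same-numbered arrays did not deviate together (r of -0.09, -0.14 and 0.03), so the replicate number was not taken as a pairing. With the replicate block, 1 member was lower and 1 higher, 101 of all genes were higher, and 2 further pathway genes were higher; Pdk4 (adjusted p = 0.0945), Pgd (0.0559) and Ckm (0.109) lost their calls in limma, as did Slc2a12 (0.0772), Me1 (0.0591), Pgls (0.0797) and Egln3 (0.0501). Array weights gave 6 members higher, 1157 of all genes lower and 585 higher, and 8 further pathway genes higher. Quantile normalization gave 12, 586 and 10 higher (members, all genes, further pathway genes), cyclic loess 9, 457 and 9, with 1035 of all genes lower, and centring on the brightest genes 18, 3075 and 27. With centring, the adjusted p followed the size of the change and did not weigh each gene's spread.

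Some signs turned: Aldoc with array weights (-0.081) and loess (-0.010), Eno2 with array weights (0.023) and centring (0.45), Aldoa after quantile normalization (0.66), loess (0.75) and centring (0.47), and, with centring, Slc2a1 (0.13), Slc2a3 (0.28), Pfkfb3 (0.24), Slc16a1 (0.35) and Ogdh (0.45). Among isoform pairs, Slc2a1 minus Slc2a3 turned to 0.16 (quantile) and 0.040 (loess), Hk1 minus Hk2 to 0.061 and 0.24, and to 0.41 with the other Hk1 probe set, and Aldoa minus Aldoc to 0.63 and 0.76. Leaving out 1 array moved Aldoa from -0.30 to 0.27, Aldoc from -0.15 to 0.16, Eno2 from -0.086 to 0.062, Idh2 from -0.090 to 0.35, Mdh1 from -0.28 to 0.37, Ogdh from -0.26 to 0.21, Pgam2 from -0.037 to 0.69, Slc16a1 from -0.38 to 0.15, Sucla2 from -0.056 to 0.39, Aldoa minus Aldoc from -0.39 to 0.35 and Pgam1 minus Pgam2 from -0.17 to 0.74. The cause was not tested. Signal over background limits Pfkfb3, Aldoc, Eno2 and Pdk1, which lay within it in both groups.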

Other observations

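Gapdh, the dehydrogenase between aldolase and phosphoglycerate kinase and a common reference gene, was named only by 25 probe sets that list several genes, with 20 distinct sets of values. Their median was 9.72, 9.60 and 9.84 in fresh samples against 11.13, 9.23 and 10.08 in cultured ones. Cultured array 1 was above all fresh arrays and cultured array 2 below them. The log2 difference of these probe sets, cultured minus fresh, ran from 0.16 to 0.63 with a median of 0.41. They share sequence with other genes, so no value of Gapdh alone is given.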
